A study of Homo sapiens with 8 samples.

Results

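The mature miRNAs described here are both arms of the miR-423, miR-22 and miR-7 hairpins, in full hsa-miR-423-5p, hsa-miR-423-3p, hsa-miR-22-3p, hsa-miR-22-5p, hsa-miR-7-5p and hsa-miR-7-1-3p, where hsa stands for Homo sapiens. They were taken by name from the table of mature human miRNAs, where these 6 of 2588 names fill 8 of 2813 entries because miR-7-5p has 1 entry for each of 3 genomic copies. The arms miR-423-5p, miR-22-3p and miR-7-5p stand on a list of 10 abundant miRNAs predicted to bind the 3′ untranslated region (3′UTR) of the mRNA of SRF, the serum response factor, and are called listed arms below. The study chose that list for abundance, and for expression it calls conserved, in these same libraries. Neither a high level nor a small spread of its members over the lines is therefore independent evidence. miR-423-3p, miR-22-5p and miR-7-1-3p are the partner arms, cut from the other side of the same hairpins.

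Small RNA of 4 established human tumor cell lines was sequenced, each in 2 replicate libraries, 8 in all. ES-2 cells derive from ovarian cancer, MV-3 cells from melanoma, Huh-7 cells from hepatocellular carcinoma and A-549 cells from lung adenocarcinoma. All lines were parental and untreated, were grown in DMEM with serum, and were harvested 48 h after seeding, so every group differs from every other in tissue of origin as well as in line. Total RNA rather than a small RNA fraction served as input, with 50 ng per library.

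miRNAs are cut from hairpins in longer primary transcripts, and either arm of the hairpin can be loaded into an Argonaute protein. A loaded miRNA finds mRNAs mainly through its seed, bases 2 to 8, which pairs with complementary letters that lie mostly in 3′UTRs, and the bound mRNA is repressed or degraded. miR-22 is broadly expressed and known from heart and muscle. miR-7 is known from neurons and endocrine cells and as the miRNA bound by the circular RNA CDR1as, and miR-423 is present in most tissues. SRF is the transcription factor that drives genes of the actin cytoskeleton and immediate early genes.

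The mature sequences are given first, since the seed decides which letters of SRF each arm can pair with. They are those of RefSeq on GRCh38.p14, 5′ to 3′, with the seed in capitals.
miR-423-5p: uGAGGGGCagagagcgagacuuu
miR-423-3p: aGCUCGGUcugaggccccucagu
miR-22-3p: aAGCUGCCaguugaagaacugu
miR-22-5p: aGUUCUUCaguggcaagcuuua
miR-7-5p: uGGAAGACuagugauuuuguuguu
miR-7-1-3p: cAACAAAUcacagucugccaua
No seed was shared between any of the 6 arms. Among 2370 mature names in the RefSeq table, the seed of miR-423-5p was shared only with miR-3184-5p and the seed of miR-7-1-3p only with miR-7-2-3p, and the other 4 seeds occurred in 1 name each. miR-7-2-3p differs from miR-7-1-3p at 4 of 22 positions. Its sequence and that of miR-3184-5p follow, for the letters outside the shared seed.
miR-3184-5p: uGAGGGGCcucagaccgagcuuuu
miR-7-2-3p: cAACAAAUcccagucuaccuaa

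In GENCODE release 44 on GRCh38, the miR-423 hairpin lay at chr17:30117079-30117172 on the plus strand, inside NSRP1, a gene for a splicing regulator. It was intronic in 11 of 12 NSRP1 transcripts and exonic in 1. The miR-22 hairpin lay at chr17:1713903-1713987 on the minus strand, and 30 of 32 transcripts of its host MIR22HG, a long noncoding RNA, held it in an exon. MIR7-1, the source of miR-7-1-3p, lay at chr9:83969748-83969857 on the minus strand in HNRNPK, which encodes an RNA-binding protein, and was intronic in 27 of 28 transcripts. MIR7-3 lay at chr19:4770670-4770779 on the plus strand, in introns of all 56 annotated MIR7-3HG transcripts. The remaining copy, MIR7-2 at chr15:88611825-88611934 on the plus strand, lay in no annotated host transcript. Expression of these hosts was not measured here.

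Seed matches were looked for in the 3′UTR of the canonical SRF transcript, 2316 bases at chr6:43179191-43181506 on the plus strand, reading the mRNA strand only. Either the complement of bases 2 to 8 or the complement of bases 2 to 7 followed by an A counted as a match. Each of the 3 listed arms had 1 match, shown here with neighbouring bases in lower case and the match in capitals, as DNA letters.
site of miR-423-5p at chr6:43179642-43179669: agagccctggctctGCCCCTCAgggggc
site of miR-7-5p at chr6:43179835-43179862: cccttctcccccttGTCTTCCcccctct
site of miR-22-3p at chr6:43180485-43180512: tctcccagggagtgaGCAGCTActgtaa
miR-423-5p alone among the 6 arms met both definitions, with complementarity to bases 2 to 8 and a following A. miR-7-5p matched bases 2 to 8 without the A, and miR-22-3p matched bases 2 to 7 with it. The matches began 466, 659 and 1310 bases into the 3′UTR for miR-423-5p, miR-7-5p and miR-22-3p, in that order. The last 4 letters of the miR-423-5p match were also the first 4 letters of the match CTCAGGG of miR-125a-5p and miR-125b-5p, other miRNAs of the study's list. The partner arms miR-423-3p, miR-22-5p and miR-7-1-3p had no match of either kind in this 3′UTR. Such matches are common: among 5079 canonical 3′UTRs of at least 2316 bases, the first 2316 bases held GCCCCTC in 17% of cases, GTCTTCC in 15.4% and GCAGCTA in 9.73%. The other motif that would have counted for these arms was CCCCTCA in 16.9%, TCTTCCA in 24.7% and GGCAGCT in 19%, in the same order. A match of either kind is thus at least as common as the higher value of each pair. The 8-base match of miR-423-5p was not counted in them. Since predicted sites put the listed arms on the list, these matches describe them and test nothing.

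The libraries held 1173902 to 2670030 reads on mature miRNAs. Levels are given as normalised CPM, the deposited values, which are counts per 1000000 miRNA reads divided by a factor. That factor, the trimmed mean of M values (TMM), is meant to remove differences in library composition, and whether it did so here was not tested. The factors spanned 0.593 in an A-549 library to 1.70 in a Huh-7 library, and miR-21-5p alone took 64.2 and 65.0% of the reads in A-549 against 27.0 to 33.3% elsewhere. Values scaled to the total of miRNA reads only are called library CPM. The labels number the libraries of a line as replicates without saying how cultures were kept apart, so p values measure the spread between these libraries. The hepatocyte miRNA miR-122-5p stood at 81224 and 86217 normalised CPM in Huh-7 and at 39.2 or less elsewhere, whereas the melanocyte miRNA miR-211-5p had no read in either MV-3 library. The blood cell miRNA miR-142-3p reached 376 and 337 normalised CPM in ES-2 and had no read in the other lines, while the other 3 blood markers examined did not exceed 1.64 in any library. Whether either observation bears on the arms described here was not tested.

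All 6 arms had reads in every library and passed the filter on low values. Together they held 1.38 and 1.35% of miRNA reads in ES-2 (replicates 1 and 2), 1.40 and 1.62% in MV-3, 3.17 and 3.28% in Huh-7, and 0.956 and 1.05% in A-549. Huh-7 stood above and A-549 below all other libraries. The lines differed (exact permutation test over 105 ways of dividing the libraries into pairs, p = 0.00952, the smallest it can give, 0.0159 after Benjamini-Hochberg adjustment over 5 tests). The place of A-549 depended on miR-21-5p. With its reads left out of the total, the share was 2.74 and 2.93% in A-549, above ES-2 with 1.92 and 1.86% and MV-3 with 2.09 and 2.39%, while Huh-7 stayed highest with 4.75 and 4.88%. Most of the share of all miRNA reads in Huh-7 was miR-423, with 1.77 and 1.83% for the 3p arm and 1.04 and 1.08% for the 5p arm. There miR-7-5p held 0.200 and 0.208%, less than its 0.297 and 0.272% in ES-2. These shares refer to library totals and leave out the TMM factors, which were largest in Huh-7. Within the reads of the 10 listed miRNAs, miR-423-5p, miR-22-3p and miR-7-5p held 31.9 and 33.4% in Huh-7, 15.8 and 15.7% in ES-2, 8.57 and 10.1% in MV-3, and 8.79 and 10.6% in A-549.

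**Figure D1:**
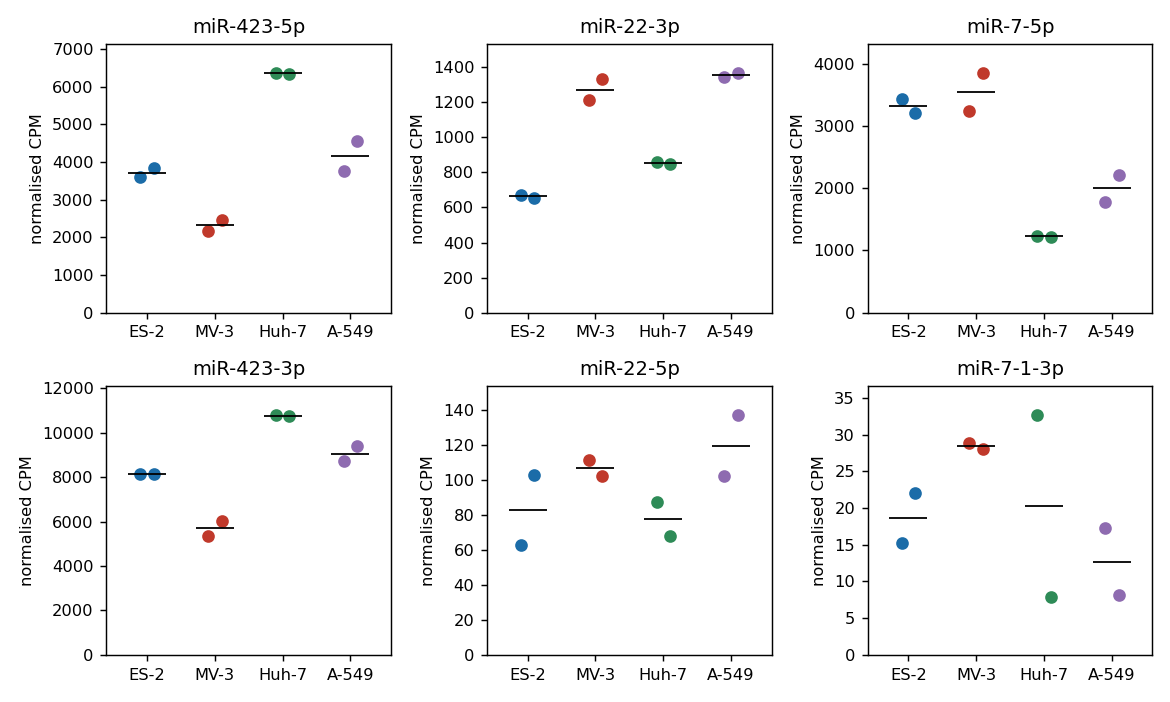
Level of each arm (vertical axes, normalised CPM, starting at 0) in the 4 lines, with 1 point per library and a bar at the line mean, listed arms in the upper row and partner arms below. miR-423-5p is highest in Huh-7 at 6371 and 6336, miR-22-3p lowest in ES-2 at 673 and 653, miR-7-5p lowest in Huh-7 at 1225 and 1223, and the replicates of miR-7-1-3p in Huh-7 lie far apart at 32.7 and 7.86.

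Of the listed arms, miR-423-5p was the most abundant in Huh-7, A-549 and ES-2, ranking between 13 and 46 among all miRNA names of a library. It stood at 3606 and 3836 normalised CPM in ES-2, 2179 and 2455 in MV-3, 6371 and 6336 in Huh-7, and 3767 and 4559 in A-549. On this scale both Huh-7 libraries lay above all others and both MV-3 libraries below all others, whereas ES-2 and A-549 overlapped. The line means were 6354 ± 24.6 (SD, n = 2) in Huh-7, 4163 ± 560 in A-549, 3721 ± 162 in ES-2 and 2317 ± 195 in MV-3. Huh-7 exceeded MV-3 by 1.46 on the log2 scale (SE 0.11, adjusted p = 4.4e-05, limma), and the 4 lines differed jointly (adjusted p = 1.4e-04). In the order Huh-7, A-549, ES-2, MV-3, the neighbours A-549 and ES-2 were not told apart, with a log2 difference of 0.16 and a 95% interval from -0.10 to 0.41. Huh-7 led A-549 by less with DESeq2, where the log2 difference of A-549 against Huh-7 was -0.38 with an adjusted p of 0.0135 (over all alternatives 4.4e-06 to 0.0277). On library CPM, Huh-7 kept its lead, but the log2 difference of A-549 against MV-3 changed from 0.84 to -0.11. A-549 then had the lowest mean, at 2499 against 2698 in MV-3. The difference of MV-3 against ES-2 shrank from -0.69 (adjusted p = 0.0027, limma) to -0.24 and was no longer called (adjusted p = 0.107).

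The level of miR-22-3p was the lowest of the listed arms in every library, at ranks 54 to 77. It held 673 and 653 normalised CPM in ES-2, 1210 and 1332 in MV-3, 860 and 845 in Huh-7, and 1341 and 1367 in A-549. On this scale no 2 lines overlapped, and the replicates of a line lay close, with means of 663 ± 13.7 (SD, n = 2), 1271 ± 86.4, 853 ± 10.8 and 1354 ± 18.9 in the same order. ES-2 was lower than each other line: A-549 exceeded it by 1.03 on the log2 scale (SE 0.07, adjusted p = 4.0e-05), MV-3 by 0.94 (adjusted p = 1.1e-04) and Huh-7 by 0.36 (adjusted p = 0.0043). The last of these calls was lost with DESeq2 (log2 difference 0.23, adjusted p = 0.0864, range over alternatives 1.1e-05 to 0.0864). A-549 and MV-3, at the top of the order, differed by 0.09 with a 95% interval from -0.08 to 0.26. On library CPM, ES-2 remained lower than every other line, while A-549 fell below MV-3 and Huh-7, with log2 differences of -0.86 and -0.81 in place of 0.09 and 0.67. Huh-7 and MV-3 overlapped on library CPM. Their log2 difference, Huh-7 against MV-3, went from -0.57 (adjusted p = 5.0e-04, limma) to -0.05 (adjusted p = 0.574).

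miR-7-5p showed another order. Summed over its entries, it stood at 3430 and 3203 normalised CPM in ES-2, 3241 and 3852 in MV-3, 1225 and 1223 in Huh-7, and 1775 and 2214 in A-549, at ranks 31 to 51. ES-2 and MV-3 overlapped and lay above both A-549 libraries, which in turn lay above both Huh-7 libraries. Means were 3547 ± 432 (SD, n = 2) in MV-3, 3317 ± 160 in ES-2, 1994 ± 311 in A-549 and 1224 ± 1.09 in Huh-7. Huh-7 fell by 1.53 on the log2 scale against MV-3 (SE 0.13, adjusted p = 8.3e-05) and by 1.44 against ES-2 (adjusted p = 1.0e-04). MV-3 and ES-2 were not told apart, with a log2 difference of 0.09 and a 95% interval from -0.22 to 0.40. The place of A-549 depended on the scaling. A-549 exceeded Huh-7 by 0.70 on normalised CPM (adjusted p = 0.0031), yet on library CPM the log2 difference was -0.78 (adjusted p = 0.00165). On both scales MV-3 and ES-2 exceeded A-549, and MV-3 exceeded Huh-7. The difference of Huh-7 against ES-2 shrank to -0.48 on library CPM and was no longer called (adjusted p = 0.0155).

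Among the partner arms, miR-423-3p was more abundant than any listed arm in every library. Its levels were 8141 and 8137 normalised CPM in ES-2, 5353 and 6033 in MV-3, 10804 and 10745 in Huh-7, and 8715 and 9389 in A-549, at ranks 8 to 24. On this scale no 2 lines overlapped. The order was that of miR-423-5p, cut from the same hairpin, with a smaller spread: Huh-7 exceeded MV-3 by 0.92 on the log2 scale (SE 0.07, adjusted p = 6.1e-05). Against ES-2, Huh-7 was higher by 0.40 (adjusted p = 0.0028, 0.0246 with DESeq2, range over alternatives 7.3e-06 to 0.0267). The neighbours A-549 and ES-2 differed by 0.15 (95% interval -0.02 to 0.33), and A-549 and Huh-7 by -0.25 (-0.43 to -0.08, adjusted p = 0.02, above the threshold of 0.01). The latter difference was -0.02 with DESeq2 (adjusted p = 0.912) and was called on library CPM, at -1.73 (adjusted p = 2.8e-06), these being the ends of the range over alternatives. On library CPM, A-549 lay below MV-3 instead of above it, with a log2 difference of -0.28 in place of 0.67, and below ES-2, with -0.36 (adjusted p = 0.00645) in place of 0.15. MV-3 and ES-2 overlapped on library CPM. The difference of MV-3 against ES-2 shrank from -0.52 (adjusted p = 0.0016, limma) to -0.08 and was no longer called (adjusted p = 0.464).

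The other partner arms were scarce, and no difference between lines was called for them. miR-22-5p held 63.2 and 103 normalised CPM in ES-2, 112 and 103 in MV-3, 87.8 and 68.0 in Huh-7, and 102 and 137 in A-549, from 91 to 312 reads per library. The replicates of ES-2 lay furthest apart, and their counting intervals of 50.9 to 77.6 and 89.5 to 119 (exact Poisson, 95%) did not overlap. Over the 4 lines the adjusted p was 0.20, and the largest difference, A-549 over Huh-7, was 0.61 on the log2 scale with a 95% interval from -0.08 to 1.30. miR-7-1-3p was read 22 and 43 times in ES-2, 39 and 51 times in MV-3, 116 and 23 times in Huh-7, and 28 and 10 times in A-549. As normalised CPM these were 15.3 and 22.1, 28.9 and 28.0, 32.7 and 7.86, and 17.2 and 8.18. In Huh-7 the replicates differed by more than counting error, with intervals of 27.0 to 39.2 and 4.98 to 11.8, although the 4 abundant arms agreed closely in this line. Over the 4 lines the adjusted p was 0.465, and intervals of the pairwise differences, such as -2.86 to 0.49 for A-549 against MV-3, were wide. These intervals cover counting error of reads or the spread of libraries. Whether reads had been collapsed to molecules was not given in the sources used here.

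Since the scaling of libraries moved several differences, ratios of arms within a library were compared. The scaling cancels in them except through the 1 added to each level, which weighs on scarce arms. With library size only, the range over lines of the log2 ratio of miR-7-5p to miR-7-1-3p was 1.215 in place of 1.27. miR-423-5p exceeded miR-22-3p in all 8 libraries, by 5.35 and 5.86-fold in ES-2, 1.80 and 1.84-fold in MV-3, 7.40 and 7.49-fold in Huh-7, and 2.81 and 3.33-fold in A-549. No 2 lines overlapped (exact permutation p = 0.00952, adjusted 0.0159). The ratio of miR-423-5p to miR-7-5p was 1.05 and 1.20 in ES-2, 0.672 and 0.637 in MV-3, 5.20 and 5.18 in Huh-7, and 2.12 and 2.06 in A-549. It thus turned around between MV-3, where miR-7-5p was the more abundant, and Huh-7, a difference of 2.99 on the log2 scale (exact permutation p = 0.00952, adjusted 0.0159). miR-22-3p stayed below miR-7-5p throughout, at 0.196 and 0.204 of its level in ES-2, 0.374 and 0.346 in MV-3, 0.703 and 0.691 in Huh-7, and 0.756 and 0.618 in A-549. Huh-7 and A-549 overlapped in this ratio, and ES-2 was lowest (exact permutation p = 0.0286, adjusted 0.0357 over 5 tests and 0.0571 when the arm ratios of the 3 hairpins are counted in).

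**Figure D2:**
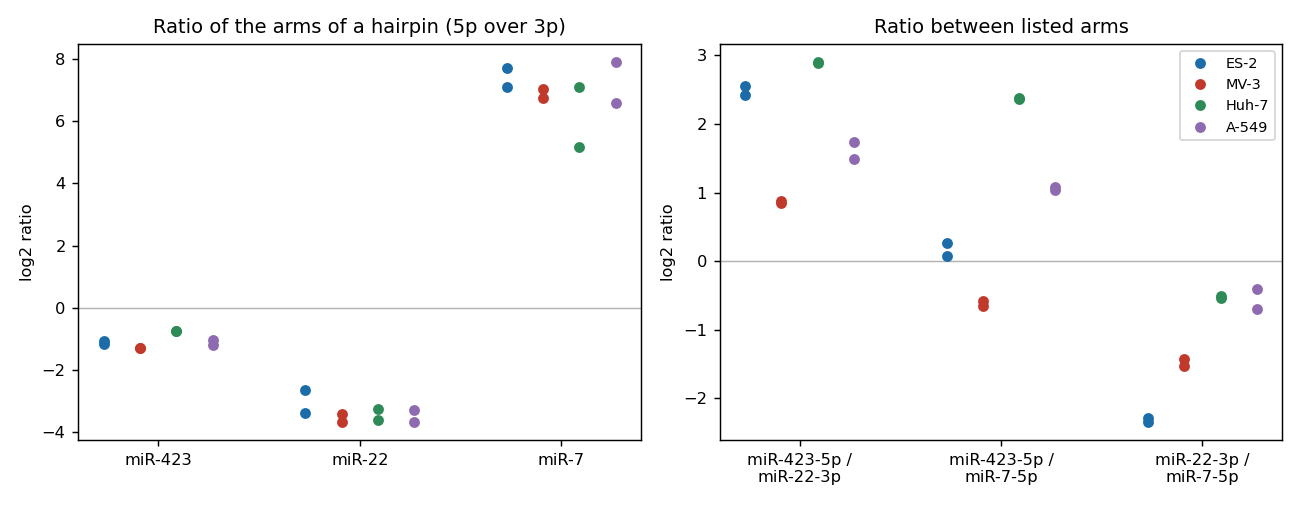
Log2 ratios within each library (vertical axes), 1 point per library and 1 color per line: the 5p over the 3p arm of each hairpin (left) and ratios between the listed arms (right). The ratio of miR-423-5p to miR-7-5p runs from -0.65 in an MV-3 library to 2.38 in a Huh-7 library, whereas arm ratios of a hairpin keep their sign in all 8 libraries.

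Within hairpins, the same arm dominated in every library. The 5p arm of miR-423 held 0.443 and 0.471 of the level of its 3p arm in ES-2, 0.407 and 0.407 in MV-3, 0.59 and 0.59 in Huh-7, and 0.432 and 0.486 in A-549, so that the arm on the study's list was the weaker of the pair. Both Huh-7 libraries lay above all others. For miR-22 the 3p arm dominated, with a 5p share of 0.0769 to 0.159 of the 3p level over the 8 libraries. miR-7-5p exceeded miR-7-1-3p between 36.4 and 241-fold, a ratio that joins the 5p reads of 3 hairpins with the 3p reads of 1. Of the 3 hairpins, 0 were called for a ratio that differed between lines by limma, and 0 had an unadjusted p below 0.05, with 7.86% of the 140 hairpins tested called. Before adjustment, the exact permutation test gave p = 0.0476 for miR-423, 0.476 for miR-22 and 0.629 for miR-7, and 0.0762 for miR-423 after adjustment over 8 tests. The limma result for miR-423 turned on how the variance was shared. Its adjusted p was 0.335 with 1 prior variance for all hairpins and 0.00325 when, in an alternative chosen after seeing the data, the prior followed the level of the weaker arm. The log2 arm ratio of miR-423 ranged over 0.53 between lines, below the median of 1.41 over all hairpins.

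The 3 entries of miR-7-5p, which share 1 mature sequence, took nearly equal parts of its reads. The chromosome 9 entry held 32.1 to 35.3%, the chromosome 15 entry 32.0 to 34.7% and the chromosome 19 entry 31.6 to 33.7% over the 8 libraries. The chromosome 9 share was 34.1 and 33.2% in ES-2, 32.1 and 34.0% in MV-3, 34.0 and 34.0% in Huh-7, and 35.3 and 34.4% in A-549, and a difference between lines was not detected (exact permutation p = 0.181). Reads of identical mature sequences cannot be assigned to a copy, so these shares describe the counting and not the output of MIR7-1, MIR7-2 or MIR7-3. The 3p arms of MIR7-1 and MIR7-2, which do differ, gave 332 reads in all for miR-7-1-3p and 0 for miR-7-2-3p, which allows a share for the latter of up to 0.904% of the miR-7-1-3p count. No 3p arm of MIR7-3 was among the names examined, so these reads do not show which copies made miR-7-5p. On the opposite strand, miR-3184-3p covers the same bases as miR-423-5p at chr17:30117095-30117117, and was listed with 0 reads beside 72956 of miR-423-5p. miR-3184-5p likewise had 0 reads beside 141271 of miR-423-3p. miR-3529, opposite MIR7-2, had 1 read of its 5p arm in all libraries and 0 of its 3p arm. Use of strand in the counting was not given in the sources used here.

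**Figure D3:**
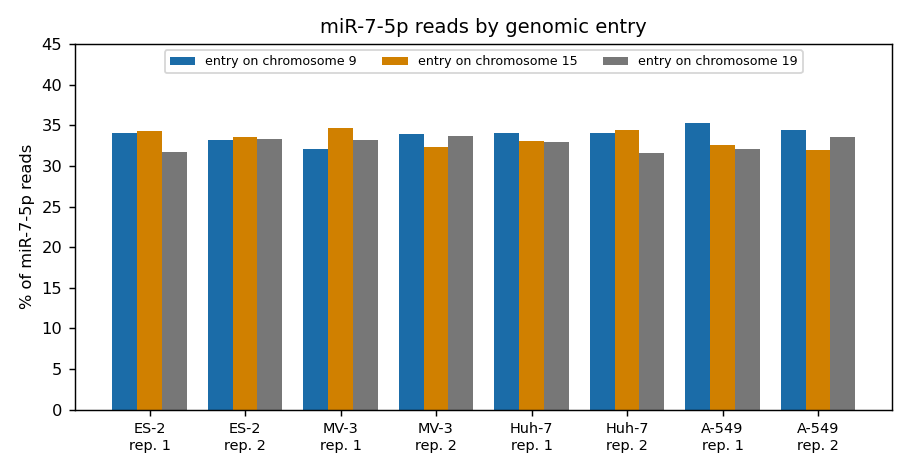
Share of miR-7-5p reads (vertical axis, percent, from 0) on each of its 3 genomic entries in each of the 8 libraries. All bars lie between 31.6 and 35.3%.

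Each count of called arms is given with the share called among all miRNAs tested. Over the 4 lines, 4 of 6 arms were called at an adjusted p below 0.01, namely miR-423-5p, miR-423-3p, miR-22-3p and miR-7-5p, against 68.2% of 528 tested miRNAs. For MV-3 against ES-2, 3 were called (1 higher, 2 lower in MV-3), with 25.8% of all miRNAs called. For Huh-7 against ES-2, 4 were called (3 higher, 1 lower), with a background of 49.2%. For A-549 against ES-2, 2 were called (1 higher, 1 lower), beside 41.3%. Huh-7 against MV-3 gave 4 calls (2 higher, 2 lower), where 47.0% of miRNAs were called. A-549 against MV-3 gave 3 (2 higher, 1 lower), where the background was 39.6%, and A-549 against Huh-7 also 3 (2 higher, 1 lower), where it was 52.3%. On library CPM the split by direction differed: 0 arms were called higher and 4 lower for A-549 against Huh-7, 0 higher and 2 lower for A-549 against MV-3, and 1 higher and 2 lower for A-549 against ES-2. Likewise, 3 were called higher and 0 lower for Huh-7 against ES-2, 2 higher and 1 lower for Huh-7 against MV-3, and 1 higher and 0 lower for MV-3 against ES-2. Whether the arms' share differs from the background was not tested, and pairs that share a line are not independent of each other. Of these counts, 4 rested on single libraries. For MV-3 against ES-2, 1 arm was called without ES-2 replicate 1, without ES-2 replicate 2 or without Huh-7 replicate 2, and for A-549 against Huh-7, 1 without either Huh-7 library. For Huh-7 against ES-2, 1 was called without ES-2 replicate 1 or without either Huh-7 library and 2 without ES-2 replicate 2. For A-549 against ES-2, 1 was called without any single library of ES-2 or Huh-7 or without A-549 replicate 1.

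**Figure D4:**
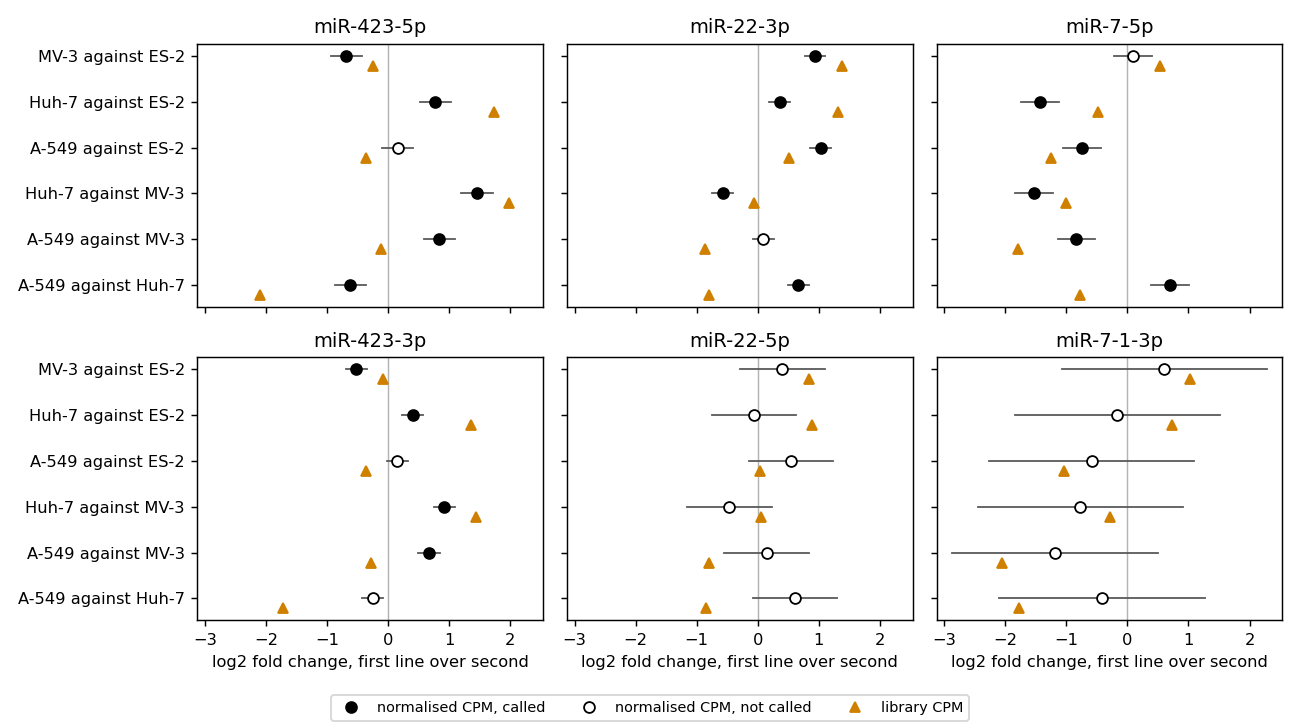
Log2 fold changes of each arm for the 6 pairs of lines (horizontal axis, first line over second), as circles with 95% intervals on normalised CPM, filled where the adjusted p was below 0.01, and as triangles on library CPM. The triangles of A-549 against Huh-7 lie left of the circles for every arm, and for miR-22-3p, miR-22-5p and miR-7-5p on the other side of 0.

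Levels of the 6 arms varied moderately over the lines. Because the study's list was drawn partly for conserved expression in these libraries, a small spread of the listed arms is not independent evidence. Between the highest and lowest line, the fold was 2.75 for miR-423-5p, 1.90 for miR-423-3p, 2.04 for miR-22-3p, 1.53 for miR-22-5p, 2.89 for miR-7-5p and 2.27 for miR-7-1-3p, on the log2(normalised CPM + 1) scale. The median over these was 1.11 on the log2 scale, against 3.09 over all 528 tested miRNAs and 3.67 over the other 7 miRNAs of the study's SRF list. Of those 528, which include miR-142-3p with reads in ES-2 only, between 17 (for miR-22-5p) and 104 (for miR-7-5p) had a smaller spread. The other 7 were all called over the 4 lines, and they ranged from miR-148b-3p, at 1.56-fold, to miR-31-5p, which had 14724 ± 760 normalised CPM (SD, n = 2) in A-549 and 0.794 ± 0.326 in Huh-7. On library CPM the members' median rose to 1.76 and that of all miRNAs tested there to 3.31.

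**Figure D5:**
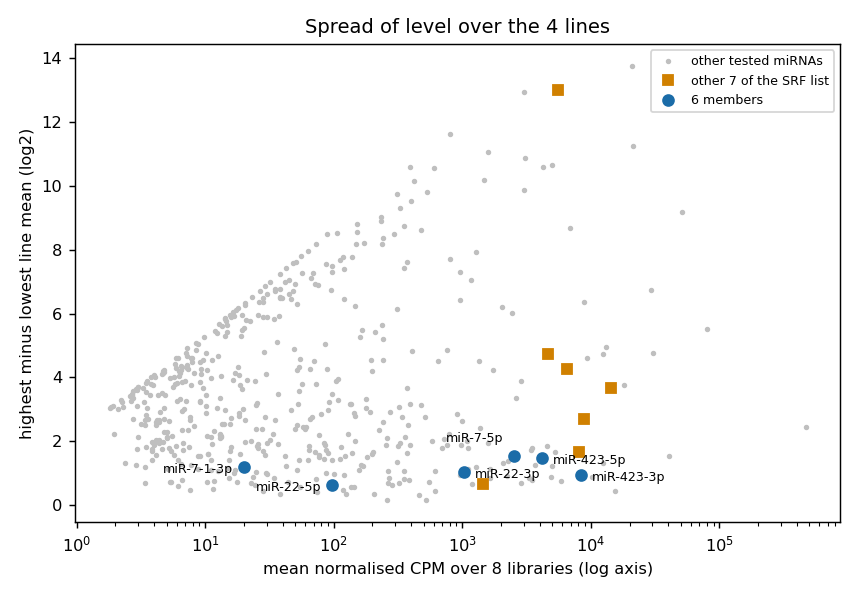
Spread of each tested miRNA over the lines (vertical axis, highest minus lowest line mean, log2) against its mean level (horizontal axis, normalised CPM, log axis), for 528 miRNAs. The 6 arms lie between 0.61 and 1.53, below the median of 3.09. Of the other 7 of the SRF list, 6 lie higher than all of the 6 arms, up to 13.0 for miR-31-5p. Below the median of 3.09 were miR-148b-3p at 0.64, miR-125a-5p at 1.65 and miR-24-3p at 2.71.

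Patterns over the 8 libraries were compared with those of the 177 other tested miRNAs that had a mean of at least 100 normalised CPM. The arms described here were left out of these 177, so likeness between them, also between the arms of a hairpin, is not given. Among these 177, the nearest to miR-423-5p were miR-455-3p (Pearson r = 0.96) and miR-25-3p (0.92), and to miR-423-3p miR-196b-5p (0.96) and miR-335-3p (0.95). miR-22-3p was nearest to miR-181a-2-3p (0.99) and miR-143-3p (0.96), and miR-7-5p to miR-155-5p (0.97) and miR-125b-1-3p (0.96). For the scarce arms the likeness was weaker, with 0.74 for miR-22-5p and let-7e-5p, 0.73 for miR-22-5p and miR-769-5p, 0.77 for miR-7-1-3p and miR-1307-3p, and 0.76 for miR-7-1-3p and miR-15b-5p. All values of a library share its scaling factor and the 8 points form 4 pairs of replicates, so these coefficients only describe which profiles look alike.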

How the data were processed

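Small RNA-seq of 8 libraries from 4 cell lines was analysed. According to the study's methods and processing notes, reads were clipped with cutadapt 1.14, aligned to GRCh38 (hg38) with Bowtie2 2.3.2 and counted on miRBase 21 with featureCounts 1.5.3, and values were scaled by TMM with edgeR 3.18.1. The handling of multiply aligned reads, of strand and of the random adapter bases was not given in the sources used here. The authors deposited normalised signal values. In every library, 100% of them were whole reads times a constant (tolerance 0.001), from which reads and factors were recovered, and the 3-read detection floor lay between 0.845 and 2.45 normalised CPM. All sample columns were used.

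The members, lists and tests were chosen with earlier results of these data known. Entries of a name were summed. limma 3.58.1 (R 4.3.3) was fitted to log2(normalised CPM + 1), a scale that understates changes of scarce miRNAs, with 1 term per line, a trended prior and 4 residual degrees of freedom, on 528 miRNAs passing filterByExpr. Calls were made at a Benjamini-Hochberg adjusted p below 0.01. Arm ratios were fitted likewise over 140 hairpins without a trend. Single values were tested by a two-sided exact permutation test over 105 divisions. The tests were tried on simulated data. Named miRNAs were the members, the other 7 of the SRF list, miRNAs of the same loci or seeds, the 2 most alike non-members per member, and markers of cell types. edgeR 4.0.16 and DESeq2 1.42.0 on recovered reads, other scalings, filters, pseudocounts and thresholds, a replicate block, the highest entry of each name and leave-one-out fits were alternatives.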

Additional observations from a re-analysis of the deposited data

How the results depend on the processing

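Over the 4 lines, 4 arms were called under every alternative except the minimum log2 fold change of 1, with 3. That minimum left 0 calls for MV-3 against ES-2, A-549 against MV-3 and A-549 against Huh-7, 1 for Huh-7 against ES-2 and for A-549 against ES-2, and 2 for Huh-7 against MV-3. With library size only, the log2 difference of A-549 against Huh-7 shifted by -1.33 in the median of all miRNAs, the count for MV-3 against ES-2 moved from 3 to 1, the difference of miR-423-3p for A-549 against Huh-7 gained a call, at -1.73, and 6 differences called on at least 1 of the scales reversed: for A-549 against MV-3, miR-423-5p to -0.11, miR-423-3p to -0.28 and miR-22-3p to -0.86, for A-549 against Huh-7, miR-22-3p to -0.81 and miR-7-5p to -0.78, and for A-549 against ES-2, miR-423-3p to -0.36. Another 6 differences, called on neither scale, also changed sign. Without a change of sign, 4 calls were lost with library size only. They were miR-423-5p and miR-423-3p for MV-3 against ES-2, miR-22-3p for Huh-7 against MV-3 and miR-7-5p for Huh-7 against ES-2. RLE factors and DESeq2 gave 2 calls for Huh-7 against ES-2 in place of 4. The prior variance following the weaker arm, chosen after seeing the data, called the arm ratio of 1 hairpin, miR-423, in place of 0. Leaving out single libraries, between 1 and 3 arms were called in MV-3 against ES-2 and in A-549 against Huh-7, between 1 and 4 in Huh-7 against ES-2, between 1 and 2 in A-549 against ES-2, between 2 and 3 in A-549 against MV-3, and 4 each time in Huh-7 against MV-3. A line left with 1 library is assumed to vary like the other lines. In these fits 298 of 336 results of single arms kept their side of the threshold and 38 lost the call. No called difference changed sign, whereas 9 uncalled ones did. The edgeR test changed none of 42 calls, and 1 uncalled difference changed sign. The gap in the share of miR-7-5p on chromosome 9 between A-549 and MV-3, 1.82 percentage points, spanned 0.872 to 2.77 without single libraries. The labels do not say whether replicate numbers pair the libraries, and pairing was not tested. Deviations of same-numbered libraries correlated between -0.05 and 0.232, the highest for ES-2 and Huh-7. A replicate block left all 42 calls as they were, with 4 arms called over the 4 lines. miR-7-1-3p had 10 to 116 reads per library.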
